A study of Mus musculus with 6 samples.

Results

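Il6 (ENSMUSG00000025746.11) was followed by its row in the 6 gene tables and by the lists of reads that begin with the Il6 forward primer. It is 1 gene of the 56262 gene identifiers in the tables, of which 964 had a read in any library. Only listed reads that continue into the Il6 3′ untranslated region after the primer were counted as Il6 reads. The study examined 3′ ends of chosen mRNAs in bone marrow-derived macrophages (BMDMs) of wild-type (WT) and Tut7-/- mice by gene-specific TAIL-Seq, in which a linker is ligated to RNA 3′ ends and each transcript end is amplified with a gene-specific primer. The 6 libraries were WT and Tut7-/- cells without LPS (Ctrl), after LPS for 2 h and after LPS for 4 h, with 1 library for each genotype and time. All cells came from bone marrow of female C57BL/6J mice of 7-week-old age. Differentiation took 7 days in 20% L929 cell-conditioned medium, and 10 ng/ml M-CSF was given afterwards. The Tut7 deletion was made in the germ line by genome editing and is not restricted to macrophages, per the study's methods. The number of animals behind each library was not stated. The design text speaks of duplicates, and whether a library stands for 1 culture or for several pooled ones was not stated either.

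Interleukin-6 is a secreted cytokine that activated macrophages make after LPS engages the receptor TLR4. Its mRNA is short-lived, and the RNase Regnase-1, encoded by Zc3h12a, cleaves it at a stem-loop in the 3′ untranslated region. Messenger RNAs end in a poly(A) tail that is added after cleavage downstream of a poly(A) signal, and terminal uridyltransferases such as TUT4 and TUT7 can add U to a shortened tail, a mark that promotes decay.

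In mm10 coordinates, Il6 is a plus-strand gene of chromosome 5 that starts at 30013114 and ends at 30019981. In the GENCODE M21 annotation, the transcript that begins at 30013114 has 5 exons and ends at 30019975, and the transcript that runs farthest ends at 30019981. The forward primer lies in the last exon at chr5:30019929-30019955, in the 3′ untranslated region of the former, 381 nt downstream of its stop codon. The primer is shown because its last bases, in capitals, are the poly(A) signal, so only ends downstream of that signal could be amplified. The next sequence is the genome from the base after the primer to the annotated end, chr5:30019956-30019981. The last is the consensus of the reads from the same base, which runs past the annotated end to 107 nt, with its first 30 nt shown. Capitals in these 2 sequences mark the last matched base at the main end positions described below, counted from 1 at the first base after the primer. Sequences are written as DNA, so that an added U appears as T.
Il6 forward primer: tgtttagactgtcttcaaacaAATAAA
genome after the primer to the annotated end: ttatattatattTaaaaacCagtgac
read consensus after the primer: ttatattatattTaaaaacCagtgactGaa

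Il6 was nearly absent from the untreated libraries and was among the most abundant amplified genes after LPS in both genotypes. In WT cells, Il6 had 0 reads in Ctrl, 1728 reads after LPS for 2 h and 2925 reads after LPS for 4 h. In Tut7-/- cells it had 2, 1991 and 2141 reads. All 4 LPS libraries thus held far more Il6 reads than either Ctrl library. Library totals, the sums over all genes, ran from 21408 to 56718 reads, so shares of the library were compared. The share of Il6 in WT cells was 3.87% at 2 h (3.7 to 4.06, exact Clopper-Pearson 95% interval) and 5.16% at 4 h (4.98 to 5.34). In Tut7-/- cells it was 3.56% (3.41 to 3.72) at 2 h and 4.92% (4.72 to 5.12) at 4 h. In Ctrl, the 0 reads in WT allow a share of up to 0.0142% by the exact interval, and a floor of 3 reads is a share of 0.0115%. The 2 reads in Tut7-/- are a share of 0.00934% (0.00113 to 0.0337). By read count, Il6 ranked 5 and 4 in the WT libraries at 2 h and 4 h, and 5 in both Tut7-/- libraries. In bulk libraries such as these, more cells with Il6 mRNA and more Il6 mRNA per cell cannot be told apart. Intervals cover counting error only, since reads were amplified by PCR and carry no molecular identifiers, and there is no replicate library against which to judge a difference.

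**Figure D1:**
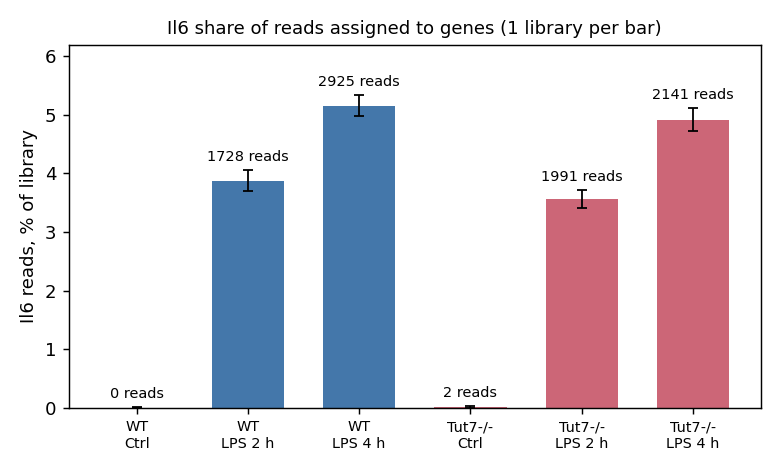
Il6 reads as a percent of all reads assigned to genes (vertical axis) in each of the 6 libraries (1 bar per library, error bars are exact 95% intervals, read counts above the bars). The 4 LPS libraries lie between 3.56% and 5.16%, and the Ctrl libraries hold 0 and 2 Il6 reads.

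Against Ctrl, the share of Il6 rose 336-fold at 2 h and 447-fold at 4 h in WT cells, taken against the floor of 3 reads in Ctrl. The exact intervals start lower, at 273 and 364, because the exact upper limit of the Ctrl share, 0.0142%, lies above that floor. In Tut7-/- cells the 2 h library had 381 times the share of Ctrl (105 to 3149). The 4 h library had 526 times that share (146 to 4349), and both intervals are wide because Ctrl had 2 reads. Both times share the Ctrl library of their genotype. Genes with 10 or more reads over a pair of libraries were compared, and Il6 had the largest ratio (with 0.5 read added to each count) among 154 genes in WT at 2 h, 151 in WT at 4 h, 170 in Tut7-/- at 2 h and 157 in Tut7-/- at 4 h. An interval above 1 was found for 18.8%, 16.6%, 14.1% and 14% of these genes, respectively, and one below 1 for 64.3%, 67.5%, 72.4% and 75.8%. With TMM factors (trimmed mean of M values) an interval above 1 was found for 27.9%, 29.1%, 24.1% and 24.8%, and one below 1 for 46.1%, 43%, 47.6% and 55.4%. Over the libraries, the log2 share (with 0.5 read added) was 9.83 higher in the 4 LPS libraries than in the 2 Ctrl libraries. The exact two-sided permutation test gave p = 0.133, the smallest p that 4 against 2 libraries allow.

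The later time had the larger share in both genotypes. The ratio of 4 h to 2 h was 1.33 (1.25 to 1.41) in WT cells, where 26.2% of 103 genes had an interval above 1 and 45.6% one below it, and 1.38 (1.3 to 1.47) in Tut7-/- cells, where 31.8% of 107 genes had an interval above 1 and 38.3% one below it. Il6 ranked 35 and 41 from the highest among these genes, so a ratio of this size was not unusual. The size depended on the scaling. With TMM factors it was 2.11 in WT and 1.24 in Tut7-/-, and the genes in WT then split the other way, with 37.9% above 1 and 34% below it. With Zc3h12a and Il6 left out of the library size it was 1.05 (0.993 to 1.12) in WT, an interval that holds 1.

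Between genotypes, the shares of Il6 were close after LPS. In Ctrl, 2 reads against 0 gave no ratio, while 38.7% of 191 genes had an interval above 1 and 26.2% one below it. At 2 h the Tut7-/- share was 0.919 (0.862 to 0.981) of the WT share, and 33.9% of 115 genes had an interval below 1 and 28.7% one above it. With DESeq2 size factors the ratio was 1.4 (1.31 to 1.5), on the other side of 1, and with TMM factors its interval held 1 (0.944, 0.884 to 1.01). At 4 h the ratio was 0.954 (0.901 to 1.01), an interval that holds 1, while 28.9% of 97 genes had an interval below 1 and 41.2% one above it. It was 0.556 with TMM factors and 0.704 with DESeq2 size factors, both with intervals below 1, and with TMM factors the genes also split the other way, with 43.3% below 1 and 28.9% above it. The log2 differences of Tut7-/- from WT were 2.60 in Ctrl, -0.12 at 2 h and -0.07 at 4 h. Their mean was 0.80 (exact sign-flip permutation test over 3 pairs, two-sided p = 1, where the smallest possible p is 0.25), and the Ctrl difference rests on 2 reads against 0. Without that pair the mean was -0.09.

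Ratios between genes of the same library do not depend on how libraries are scaled. Zc3h12a, whose product Regnase-1 degrades Il6 mRNA, held between 45.1% and 62.5% of the reads of each library. For every 100 Zc3h12a reads there were 6.2 Il6 reads at 2 h and 9.85 at 4 h in WT cells, and 5.93 and 9.18 in Tut7-/- cells. From 2 h to 4 h, Il6 thus gained on Zc3h12a by 1.59-fold (1.49 to 1.69) in WT and 1.55-fold (1.45 to 1.65) in Tut7-/-. In Tut7-/- cells the ratio of Il6 to Zc3h12a was 0.956 (0.895 to 1.02) of that in WT at 2 h and 0.931 (0.879 to 0.987) at 4 h.

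Against the cytokine Tnf, whose own share fell from 2 h to 4 h, Il6 gained more with time. There were 126 Il6 reads for every 100 Tnf reads at 2 h and 354 at 4 h in WT cells, a 2.81-fold gain (2.53 to 3.12). In Tut7-/- cells there were 110 and 224, a 2.03-fold gain (1.84 to 2.25). The Tnf share at 4 h was 0.473 (0.434 to 0.516) of that at 2 h in WT and 0.679 (0.627 to 0.734) in Tut7-/-. At 2 h, the ratio of Il6 to Tnf in Tut7-/- was 0.874 (0.795 to 0.962) of that in WT, and at 4 h it was 0.632 (0.567 to 0.705). At 4 h the Tnf share in Tut7-/- was 1.51 (1.37 to 1.66) times that in WT. TMM factors shift every ratio of shares in that comparison by -0.78 (log2). Against Il10, an anti-inflammatory cytokine, Il6 stood at 81.4 and 83.5 reads per 100 in WT, with no gain beyond counting error (1.03, 0.947 to 1.11). In Tut7-/- it went from 84.1 to 60.1, a ratio of 0.714 (0.659 to 0.774). The ratio of Il6 to Il10 in Tut7-/- was 1.03 (0.947 to 1.13) of that in WT at 2 h and 0.719 (0.669 to 0.773) at 4 h. Against Usp18, described below, Il6 gained 1.11-fold (1.02 to 1.21) in WT and 1.29-fold (1.19 to 1.41) in Tut7-/-. The ratio of Il6 to Usp18 in Tut7-/- was 0.756 (0.692 to 0.825) of that in WT at 2 h and 0.88 (0.813 to 0.952) at 4 h. The change between 2 h and 4 h thus depended on the gene used as reference, and Zc3h12a, Tnf and Usp18 gave a gain in both genotypes. Read numbers of different genes also depend on how each was amplified, so these ratios compare libraries and not the levels of the genes. The study's methods name no primer for Tnf, Il10 or Usp18, so their reads may not come from targeted amplification.

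Few other genes of the pathway had reads. The study's methods name gene-specific forward primers for Zc3h12a and Il6 only, and how reads of other genes arose was not stated. Of 12 regulators of Il6 mRNA, only Zc3h12a had a read, so Tut7 itself had 0 reads in every library and the knockout label was not checked by the counts. Of the IL-6 signalling genes reported here, Tyk2 had 2 reads over the libraries and Socs3 had 1. Of 21 TLR4 pathway genes, 3 had a read and none had 30. Of 18 LPS-induced cytokines other than Il6, Tnf and Il10 had 30 or more reads, both with intervals above 1 in every LPS library against its Ctrl, and Il1b had 4 reads and Ccl5 had 2. In the same 4 comparisons the median log2 ratio of these 2 cytokines (with 0.5 read added to each count) lay between 1.58 and 2.28, while that of all genes compared lay between -3.82 and -2.66. Of 10 macrophage markers, Lyz2 had 2 reads and the others 0, and no marker of neutrophils, T cells, B cells, dendritic cells or fibroblasts had a read, so the tables do not check the cell type.

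The genes whose profile over the 6 libraries was most like that of Il6 were mostly sparse. Likeness was the root mean square difference of centred log2 shares among 125 genes with 30 or more reads, with a median of 5.99. Rnf213, an interferon-induced E3 ligase, was the closest at 2.09, with 0, 61 and 103 reads in WT and 2, 98 and 246 in Tut7-/- at Ctrl, 2 h and 4 h. Oaf followed at 3.21 and had between 0 and 15 reads in each library. Usp18, which encodes a protease for the ubiquitin-like protein ISG15, stood at 3.29, with 133, 1798 and 2738 reads in WT and 148, 2741 and 2278 in Tut7-/-. It was the only one of the 5 with over 100 reads in each Ctrl library. Gm15133 (3.39) and Trim5 (3.68) had at most 23 reads in any library.

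The read lists gave the 3′ ends. They were selected for the primer and the linker but not for the sequence between them, and in Ctrl nearly none of the listed reads were Il6. In WT Ctrl, 3 of 277 reads continued into Il6 (1.08%, 0.224 to 3.13), and in Tut7-/- Ctrl 0 of 207 did, which allows up to 1.77% by the exact interval. In LPS 4 h, 1418 of 1747 reads did in WT (81.2%, 79.3 to 83) and 1371 of 1728 in Tut7-/- (79.3%, 77.4 to 81.2). The split was sharp. Of the 13 nt after the primer, 1267 WT and 1241 Tut7-/- reads at LPS 4 h matched Il6 with 0 edits and 151 and 130 with 1 or 2 edits, and 276 and 314 reads were 5 or more edits away. Only 2 reads in each library lay between, at 3 or 4 edits. In the untreated lists, 230 WT and 177 Tut7-/- reads were 5 or more edits away. Lists for LPS 2 h were not analysed here. The list and the table of a library do not hold the same set of reads. No 2 reads of an untrimmed list were identical, so counts and shares of listed reads need not be frequencies among the sequenced reads. At LPS 4 h the tables counted 2925 and 2141 Il6 reads against 1418 and 1371 in the lists, and the WT Ctrl table counted 0 against 3 in the list.

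**Figure D2:**
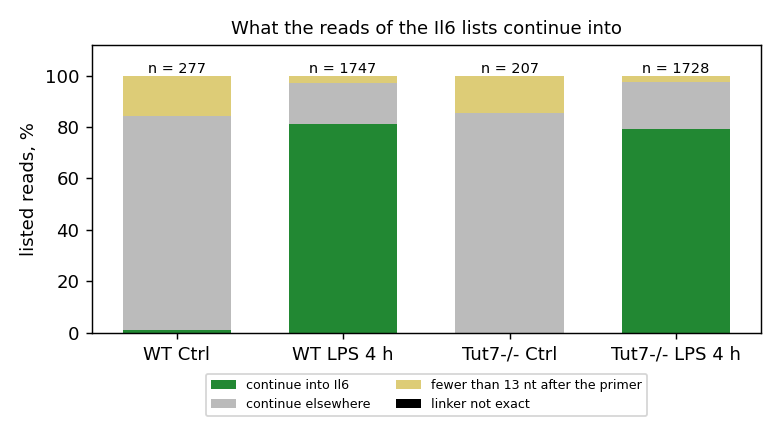
Share of listed reads (percent, vertical axis) that continue into Il6, continue elsewhere, have fewer than 13 nt after the primer or lack the exact linker, for the 4 libraries with a list (n above the bars). Il6 fills 81.2% and 79.3% of the LPS 4 h lists and 1.08% and 0% of the Ctrl lists.

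At LPS 4 h the ends of Il6 fell on 3 main positions, the same ones in both genotypes. An A run followed position 13 in 599 WT reads and 624 Tut7-/- reads, position 20 in 209 and 203 reads, and position 28 in 227 and 243 reads. Together these positions held 90.3% of 1146 tailed reads in WT and 92.9% of 1152 in Tut7-/-. Position 13 is chr5:30019968, 7 nt before the end of the shorter of these annotated transcripts. Position 20 is chr5:30019975, exactly that annotated end. Position 28 lies 2 nt past the end of the longer one. Over all positions, 255 tailed WT reads (22.3%) and 258 of Tut7-/- (22.4%) ended beyond the annotated gene, most of them at position 28. In the genome, 5 A follow position 13 and 1 follows position 20. In the read consensus 3 A follow position 28, the last of them beyond the stretch shown above. Cleavage anywhere within such A gives the same read, so each position stands for the stretch up to the last of these A.

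As a percent of all Il6 reads, position 13 held 42.2% in WT and 45.5% in Tut7-/-, a difference of 3.27 points (Newcombe 95% interval -0.411 to 6.94). Position 20 held 14.7% and 14.8%, a difference of 0.0676 points (-2.57 to 2.71), and position 28 held 16% and 17.7%, a difference of 1.72 points (-1.06 to 4.5). All 3 intervals hold 0. When each distinct sequence was counted once, position 13 held 117 WT and 129 Tut7-/- sequences, position 20 held 96 and 87, and position 28 held 82 and 84. The positions were then nearer to each other in size, and position 13 was still the largest in both libraries. Of the minor positions, 22 was used by 29 WT and 30 Tut7-/- reads and 24 by 20 and 12. Position 36 was used by 15 WT reads (11 distinct sequences) and 1 Tut7-/- read, a position named after its values were seen.

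**Figure D3:**
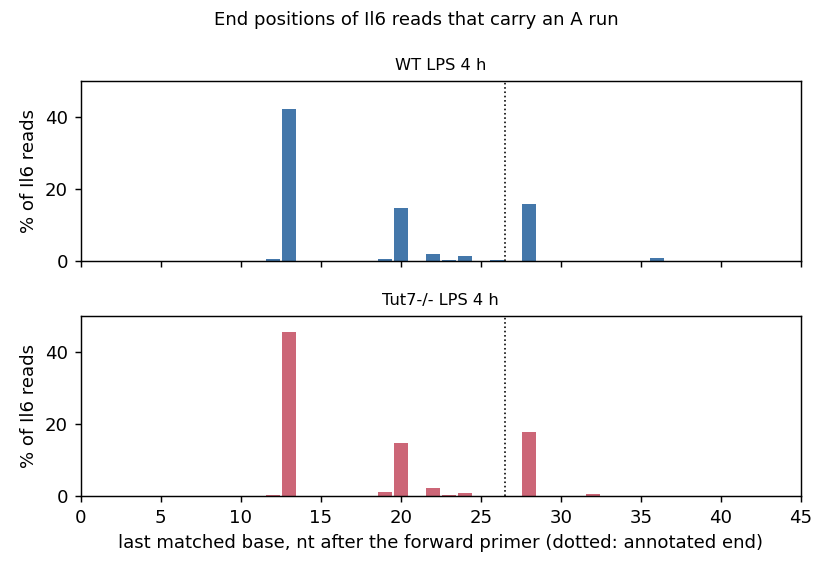
End positions of Il6 reads that carry an A run, in nt after the forward primer (horizontal axis, shown to 45), as a percent of all Il6 reads (vertical axis) for WT and Tut7-/- at LPS 4 h. Positions 13, 20 and 28 carry 42.2%, 14.7% and 16% in WT and 45.5%, 14.8% and 17.7% in Tut7-/-, and the last lies past the dotted line of the annotated end.

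Reads without a tail were the class of ends whose interval between genotypes left out 0, although not under every rule for reads. They ended inside the matched sequence in 125 WT reads (8.82%, 7.39 to 10.4) and 86 Tut7-/- reads (6.27%, 5.05 to 7.69), a difference of -2.54 points (-4.51 to -0.579) for Tut7-/- minus WT. With each distinct sequence counted once the difference was -3.4 points (-7.39 to 0.642), with the first 13 nt identical to Il6 it was -1.93 points (-3.95 to 0.0891), and with no mismatch it was -0.859 points (-2.38 to 0.661), all 3 with intervals that hold 0. Most of them ran well past the main ends, with 95 of 125 and 61 of 86 at position 40 or beyond and medians of 74 and 76. The longest Il6 inserts were 107 nt in both libraries, which is what reads of up to 151 nt leave between a primer of 27 nt and a linker of 17 nt. A further 147 WT reads (10.4%) and 133 Tut7-/- reads (9.7%) could not be split into matched sequence, A run and added bases.

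The 3 Il6 reads of WT Ctrl all ended at position 13. They carried 7, 4 and 7 A beyond those of the genome and no added base. No share was computed from 3 reads.

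A runs were short. Counting only A beyond those that the genome holds, the median was 8 in both libraries (quartiles 6 and 10), and the mean was 7.93 ± 3.14 (SD over 1146 reads) in WT and 8.02 ± 3.11 (1152 reads) in Tut7-/-. Position 13 had a mean of 7.39 in WT and 7.48 in Tut7-/-, position 20 had 8.9 and 9.08, and position 28 had 8.62 and 8.53. The order of the positions depended on this subtraction, as the median A run with the genome's A was 13, 10 and 12 at positions 13, 20 and 28 in both libraries. The medians of both genotypes were equal at each main position in either measure. The longest tails were 19 A in WT and 18 A in Tut7-/-, and 13 and 20 reads had more than 15. An insert of 107 nt would have left room for 94 A after position 13. With the genome's A, the longest runs at positions 13, 20 and 28 were 20, 20 and 20 A in WT. They were 22, 18 and 20 A in Tut7-/-. Whether the assay limited the length of A runs was not tested.

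**Figure D4:**
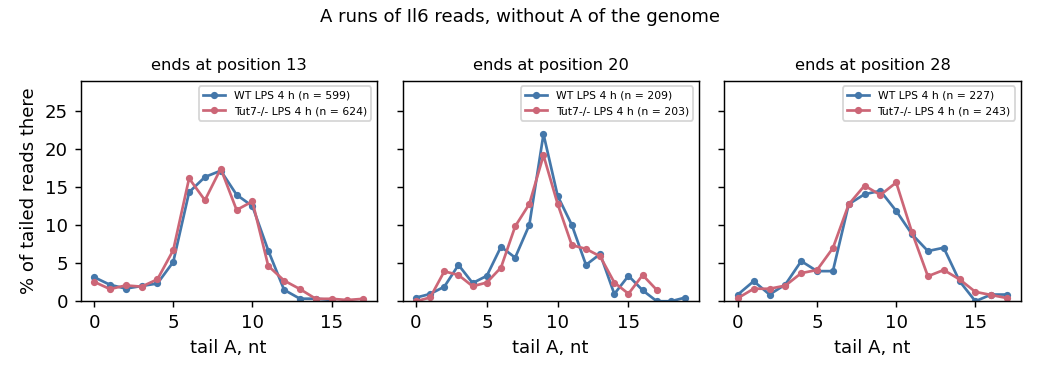
Number of A in the tail beyond those of the genome (horizontal axis, nt) as a percent of the tailed reads at each main position (vertical axis), for WT and Tut7-/- at LPS 4 h (n in the keys). The curves of both genotypes overlap and peak at 8 or 9 A at positions 13 and 20.

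The commonest reads show how an end is read. The first line below is the commonest read without an added base, found 95 times in WT and 93 times in Tut7-/-, with 8 A beyond the genome's own. The next lines are the commonest reads at position 13 with U, UU and UUU after the A run, in capitals, found 10, 2 and 1 times in WT and 8, 2 and 1 times in Tut7-/-. The last line is the commonest read at position 20, found 39 and 35 times. Each of these uridylated reads was found less often than the commonest read without an added base, and both the A run and the U run varied.
read ending at position 13, no added base: ttatattatatttaaaaaaaaaaaaa
read ending at position 13, 1 U: ttatattatatttaaaaaaaaaaaaaaT
read ending at position 13, UU: ttatattatatttaaaaaaaaaaaaaaaTT
read ending at position 13, UUU: ttatattatatttaaaaaaaaaaaaTTT
read ending at position 20, no added base: ttatattatatttaaaaaccaaaaaaaaaa

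Bases that the genome does not explain were added after the A run in 242 of 1418 WT reads (17.1%, 15.1 to 19.1) and 15.5% of 1371 Tut7-/- reads (13.7 to 17.6), and U was the commonest. U was next to the linker in 165 WT reads (11.6%, 10 to 13.4) and 144 Tut7-/- reads (10.5%, 8.93 to 12.2), a difference of -1.13 points (-3.46 to 1.2). A U end of 1 nt, counted here as mono-uridylation, was found in 6.7% (5.45 to 8.13) and 6.2% (4.98 to 7.61), a difference of -0.5 points (-2.33 to 1.34). Of these 95 WT and 85 Tut7-/- reads, U was the only added base in 91 and 80, and in the others it followed other added bases. Oligo-uridylation, with 2 or more U next to the linker, was found in 4.94% (3.87 to 6.2) and 4.3% (3.29 to 5.52), a difference of -0.633 points (-2.21 to 0.942). These intervals hold 0, and that of oligo-uridylation reaches down to -2.21 points. Among the U ends, 42.4% in WT and 41% in Tut7-/- had 2 or more U.

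An added C was next to the linker in 69 WT reads (4.87%, 3.81 to 6.12) and 59 Tut7-/- reads (4.3%, 3.29 to 5.52), a difference of -0.563 points (-2.13 to 1.01). An added G was there in 8 reads (0.564%) and 10 reads (0.729%), a difference of 0.165 points (-0.473 to 0.834). U ends outnumbered C ends 2.39 to 1 in WT and 2.44 to 1 in Tut7-/-. Most additions were 1 base long, at 152 reads in WT and 143 in Tut7-/-. Runs made only of U numbered 91, 40 and 18 in WT and 80, 26 and 18 in Tut7-/- for 1, 2 and 3 U, and 12 and 14 reads had 4 or more. The longest had 7 U in WT and 10 U in Tut7-/-, the latter being the longest addition that was looked for. Mixed additions, such as UC, were found in 15 and 12 reads.

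The share of uridylated ends lay between 11.7% and 14.8% at the 3 main positions. Among tailed WT reads, U was added in 13.4% (10.7 to 16.3) at position 13, 14.8% (10.3 to 20.4) at position 20 and 13.7% (9.47 to 18.8) at position 28. Among tailed Tut7-/- reads it was added in 11.7% (9.28 to 14.5), 11.8% (7.72 to 17.1) and 14.8% (10.6 to 19.9). At the other positions together it was added in 20.7% (13.6 to 29.5) of 111 WT reads and 13.4% (6.89 to 22.7) of 82 Tut7-/- reads. For U ends, the intervals of the 3 differences between the main positions held 0 in both libraries, as did those of the differences between genotypes at each position. The oligo-U share at position 20 was 6.7% in WT and 2.96% in Tut7-/- (-3.74 points, -8.26 to 0.532), resting on 14 and 6 reads. Within Tut7-/- it was higher at position 28 (7.41%) than at position 20, by 4.45 points (0.174 to 8.75). C at position 28 was found in 12 of 227 WT reads (5.29%) and 4 of 243 Tut7-/- reads (1.65%), a difference of -3.64 points (-7.5 to -0.279). Among distinct sequences this difference was -3.77 points with an interval that holds 0 (-12.3 to 4.34), and under 3 other rules for reads it lay between -4.24 and -3.98 points with intervals that leave out 0. Within Tut7-/-, C was also less frequent at position 28 than at position 13 (-3.8 points, -6.1 to -0.867) and position 20 (-4.27 points, -8.52 to -0.725). In WT, the intervals of these 2 differences held 0. These are the few intervals without 0 among 18 comparisons between genotypes at the main positions and 36 between positions within a library, and no adjustment was made for that number.

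Added bases were more frequent after A runs of 1 to 5 A than after those of 6 to 10 A in both genotypes. With 1 to 5 A beyond the genome's own, U was added in 47 of 165 WT reads (28.5%) and 46 of 172 Tut7-/- reads (26.7%). With 6 to 10 A it was added in 78 of 752 (10.4%) and 71 of 766 (9.27%), a difference of -18.1 points (-25.7 to -11.3) in WT and -17.5 points (-24.8 to -11) in Tut7-/-. Tailed reads with 0 such A, 30 in WT and 20 in Tut7-/-, were left out, because a read without an added base needs at least 1 to count as tailed. Oligo-U fell from 17% to 3.46% in WT and from 14.5% to 3.13% in Tut7-/-, and C fell from 12.1% to 4.12% and from 9.3% to 3.92%. At position 13 alone, U fell from 25% to 9.19% in WT and from 20% to 8.67% in Tut7-/-. This contrast was not seen when each distinct sequence was counted once, but that count cannot decide whether it holds. Without molecular identifiers, separate molecules with the same sequence merge as PCR copies do, and the groups shrank unequally. In WT, 165 reads with 1 to 5 A became 141 sequences and 752 with 6 to 10 A became 153. Of the latter, the 78 reads with U became 49. In Tut7-/-, 172 reads became 137 sequences and 766 became 162. Among distinct sequences, U was added in 31.9% with 1 to 5 A and 32% with 6 to 10 A in WT (0.111 points, -10.5 to 10.6), and in 33.6% and 24.7% in Tut7-/- (-8.89 points, -19.1 to 1.4). Between genotypes, the U shares with 1 to 5 A differed by -1.74 points (-11.2 to 7.75), and those with 11 to 15 A, 11.8% in WT and 6.32% in Tut7-/-, by -5.51 points (-11.6 to 0.548). From 6 to 10 A to 11 to 15 A, the U share of reads changed by 1.46 points (-3.1 to 7.24) in WT. In Tut7-/- it changed by -2.95 points (-6.51 to 2.05), and both intervals hold 0.

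**Figure D5:**
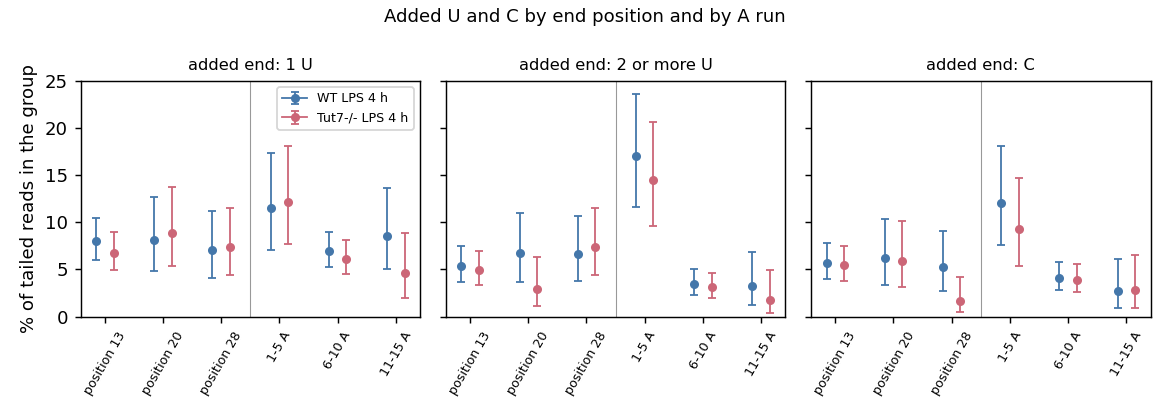
Percent of tailed Il6 reads (vertical axis) that end in 1 U, in 2 or more U or in C, by end position and by number of tail A, for WT and Tut7-/- at LPS 4 h (points with exact 95% intervals). Oligo-U stands at 17% and 14.5% with 1 to 5 A against 3.46% and 3.13% with 6 to 10 A, and the intervals of the genotypes overlap in each group.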

How the data were processed

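Members and gene lists were chosen with earlier results of these data known. RNA was ligated to linker-1, depleted of rRNA, fragmented, reverse transcribed, amplified with gene-specific primers and size-selected by the authors, which limits the ends that can be seen. Per the submitters' processing notes, alignment used HISAT2 and mm10. The authors deposited raw counts per gene, and no source used here names the counter, the use of strand or the treatment of duplicates. The deposited read lists hold read sequences (other values than counts) filtered for linker-1 and the Il6 primer. In the untrimmed lists, no 2 reads were identical, and at LPS 4 h the lists with bases after the linker removed were used. Untrimmed reads that were alike between primer and linker thus differed outside that stretch. How the lists were drawn from the sequenced reads was not stated. The WT LPS 4 h list was used beside the lists of WT Ctrl, Tut7-/- Ctrl and Tut7-/- LPS 4 h. Lines without a read were not used here. Sample groups came from the labels.

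Ratios of library shares have exact conditional binomial 95% intervals and no p-value, and those of ratios between genes are log-normal. Genes with 10 or more reads over a pair were compared. An Il6 read had 13 nt after the primer within 2 edits of Il6. It was split into a part matching the genome (or, past the annotated end, the consensus of 142 long reads) with at most 2 mismatches or 10% of its length, an A run, and up to 10 added bases. Splitting was tested on simulated reads. Named genes were Il6, the 5 most similar genes and list members with 30 or more reads; other genes with 5 or fewer reads were named after their values were seen, and 1 list member is not reported here. Alternatives were TMM (edgeR 4.0.16) and DESeq2 1.42.0 size factors, smaller library sizes, a pseudocount of 2, libraries left out, and other rules for reads. Untrimmed lists, a denominator of tailed reads, the split of A runs, and the alternatives for reads without a tail and for C at position 28 were chosen after seeing the data. Python 3.11.15, SciPy 1.17.1 and statsmodels 0.14.6 were used.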

Additional observations from a re-analysis of the deposited data

How the results depend on the processing

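No paired analysis was possible because each genotype and time had 1 library and the labels give no replicate numbers, and the test between genotypes matched libraries by LPS time alone. All 20 alternative values of the ratios of LPS to Ctrl kept their direction, from 191-fold to 2789-fold, and the intervals of the genotype differences in U, C, G and oligo-U ends and in the 3 main positions held 0 in all 48 alternative values. With genes of 1 or more reads, the share of genes below 1 against Ctrl was 30.7% to 39.5%. Scaling moved the smaller ratios. The 4 h to 2 h ratio was 2.11 in WT and 1.24 in Tut7-/- with TMM, 2.17 and 1.09 with DESeq2 size factors, and 1.05 and 1.21 without Zc3h12a and Il6. The WT ratio was 1.75 when library sizes left out the 10 most abundant genes. The Tut7-/- to WT ratio at 2 h turned to 1.4 with DESeq2 size factors and was 0.851 without Zc3h12a and Il6. At 4 h it was 0.556 with TMM, 0.704 with DESeq2, and 0.766 when those 10 genes were left out. The causes were not tested. Leaving out 1 library moved the LPS difference between 8.53 and 11.14 (log2), and leaving out 1 pair moved the genotype difference between -0.09 and 1.27.

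The difference in reads without a tail was -3.4 points with each distinct sequence counted once, -1.93 with 13 identical nt and -0.859 with no mismatch, and that in C at position 28 was -3.77 points with each distinct sequence counted once. All 4 intervals held 0. Counting each distinct sequence once raised U ends to 20% (WT) and 19.3% (Tut7-/-), oligo-U ends to 10.1% and 9.38%, C ends to 7.3% and 7.29% and G ends to 1.24% and 1.39%. It lowered position 13 to 18.2% and 22.4%, position 28 to 12.7% and 14.6%, and the share of Il6 in the lists to 69% and 65.4%. An A run of 10 or more before the added base left U ends at 5.92% and 5.32%, oligo-U at 1.83% and 1.75%, C at 2.4% and 2.48% and G at 0.141% and 0.292%. With no check against the genome, U ends were 14.2% and 12.3%, C ends 7.83% and 7%, and WT G ends 1.48%. Over tailed reads alone, U ends were 14.4% and 12.5%. Counting A of the genome gave medians of 12 and 12 and means of 11.3 and 11.5. With no mismatch, positions 13, 20 and 28 held 39.2%, 11.6% and 13.5% in WT and 41.9%, 11.6% and 14.7% in Tut7-/-. Il6 filled 72.5% and 71.8% of the lists with 13 identical nt and 76.2% and 74.9% with 8.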

Other observations

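Most listed reads of the untreated libraries began with the Il6 primer but continued elsewhere. There were 230 such reads in WT Ctrl and 177 in Tut7-/- Ctrl, against 278 and 316 at LPS 4 h, and their median length after the primer was 63, 59, 68 and 69 nt. The first 20 nt matched a GENCODE M21 transcript in 40 of 215 WT Ctrl reads (18.6%), 24 of 155 Tut7-/- Ctrl reads (15.5%), 38 of 258 WT LPS 4 h reads (14.7%) and 42 of 301 Tut7-/- LPS 4 h reads (14%). Their base next to the linker was U in 29.6% and 19.2% of the Ctrl reads and 20.1% and 19.3% of the LPS 4 h reads, while it was U in 14.2% and 12.3% of the Il6 reads. It was G in 24.1% and 24.7% of these other reads at LPS 4 h and in 1.48% and 1.31% of the Il6 reads.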
